A study of Ovis aries with 2 samples.

Results

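SOX2, SOX9 and SOX18 are 3 transcription factor genes of the SOX family, taken by symbol from the 18161 genes of a single-cell expression table of lamb skin, and all 3 were detected in both libraries. The skin came from the body side of Hu sheep, a Chinese breed, at 3 days of age. The straight wool group and the curly wool group (labelled as waved in the sample descriptions) each gave 1 library on the 10× Genomics platform, and each library was a pool of 3 lambs. Cells of microdissected follicles and cells of whole skin had been combined before loading, so the proportion of a cell type also reflects this mixture. The lambs of a pool cannot be told apart.

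SOX proteins bind DNA through an HMG box and often act as lineage regulators. In mouse skin, SOX2 is known from the dermal papilla of some follicle types and from Merkel cells, SOX9 from the bulge and outer root sheath, where it is needed for follicle stem cells, and SOX18 from blood and lymphatic vessels. Mutant SOX18 causes the ragged mouse, which has both vessel and coat defects, and SOX18 is also known in the dermal papilla. The papilla is the mesenchymal signalling centre at the base of the follicle.

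The deposited values were turned back into counts of UMIs, each of which marks 1 captured RNA molecule. There were 57956122 UMIs over 6452 straight cells (median 7373.5 per cell) and 77634565 UMIs over 7585 curly cells (median 7495 per cell). A level is given as CPM, the UMIs of a gene per 1000000 UMIs of the cells named, with an exact 95% Poisson interval in brackets. With 1 library per wool type there was no spread between lambs, so no test was made, and every interval covers counting error only. The libraries shared 70 cell barcodes, 1.08% of the straight and 0.923% of the curly cells. Of 16 results recalculated without these cells, none moved beyond its interval. Other ratios in the text were not recalculated without them. Cells fell into 22 clusters, grouped without the SOX genes and named from marker genes that held no SOX gene. The cluster named dermal papilla cell (DPC)-like was led by RSPO3, APOD, CRABP1, WIF1 and FGF7, and it had 1237 straight and 671 curly cells.

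Over all cells, SOX2 gave 114 UMIs in 95 cells of the straight library and 32 UMIs in 26 cells of the curly library. SOX9 gave 8154 UMIs in 2456 straight cells and 11362 UMIs in 2955 curly cells. SOX18 gave 3583 UMIs in 1054 straight cells and 1232 UMIs in 505 curly cells. SOX9 was thus similar in the whole libraries, with 141 CPM in the straight and 146 CPM in the curly one, while SOX18 stood at 61.8 CPM against 15.9 CPM. In such whole-library sums fewer cells of a type and less RNA per cell cannot be told apart, and the proportion of DPC-like cells was 19.2% in the straight library but 8.85% in the curly one.

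**Figure D1:**
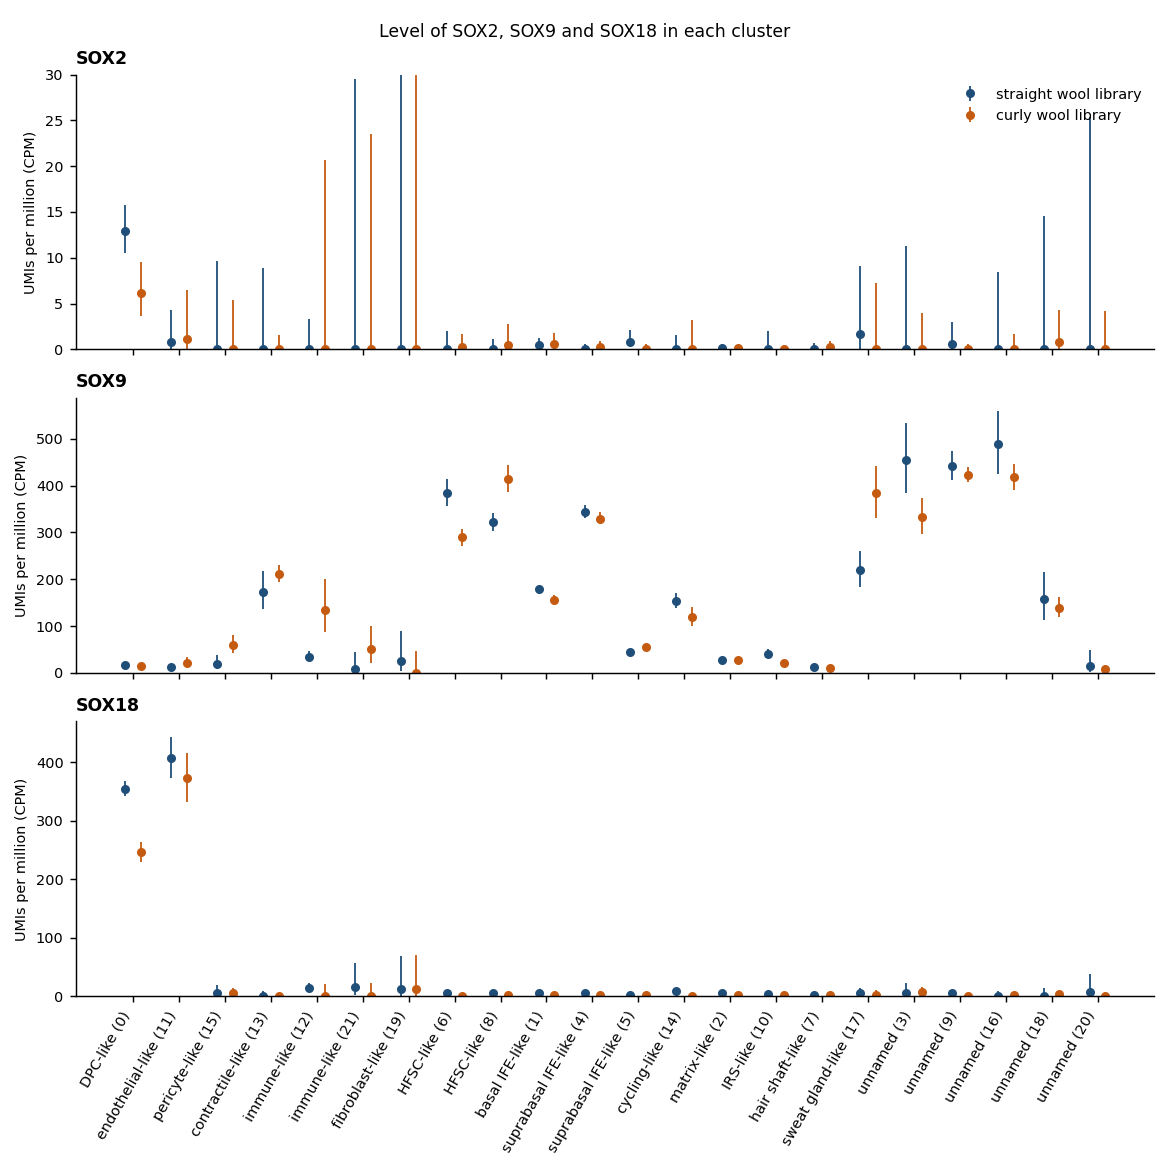
CPM of SOX2, SOX9 and SOX18 (vertical axes) in each of 22 clusters (horizontal axis, class with cluster number) for the straight (blue) and curly (orange) library; bars are exact 95% Poisson intervals, and for SOX2 those of the fibroblast-like cluster run past the top of the axis. SOX2 is highest in DPC-like cells, SOX18 in DPC-like and endothelial-like cells, and SOX9 in epithelial clusters.

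SOX18 was high in 2 clusters and low in all others. In endothelial-like cells, the cells that line vessels, it was at 407 CPM (374 to 444) in the straight and 373 CPM (333 to 416) in the curly library. In DPC-like cells it was at 355 CPM (342 to 368) and 246 CPM (229 to 264). These were the first and the second of the 22 levels in both libraries, and neither their intervals nor those of the next cluster overlapped. The DPC-like level was lower than the endothelial-like level by a log2 ratio of -0.20 (-0.33 to -0.06) in straight and -0.60 (-0.79 to -0.41) in curly cells. In the straight library this order was not stable, since the log2 ratio was 0.0062 (-0.27 to 0.30) after every cell was thinned to 2000 UMIs. All cells of other classes together had 5.21 CPM (4.59 to 5.89) in straight and 2.00 CPM (1.69 to 2.35) in curly.

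A SOX18 UMI was found in 59.3% of straight and 42.5% of curly DPC-like cells, at medians of 6085 and 4452 UMIs per cell. Among endothelial-like cells the shares were 68.2% and 57.2%, at medians of 5306 and 3827 UMIs. In the remaining classes, which serve as the background, 3.78% of straight and 1.85% of curly cells had one, although they were deeper, at medians of 8180 and 8749.5 UMIs. After thinning to 2000 UMIs the background was 1.24% and 0.431%, against 38.7% and 26.5% of DPC-like cells.

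The defining endothelial genes were near 0 in the papilla. PECAM1, a junction protein of vessel walls, had 1373 and 1378 CPM in endothelial-like cells of the straight and curly library, against 0.634 and 1.94 CPM in DPC-like cells. CDH5, the vascular cadherin, had 204 and 145 CPM in endothelial-like cells, and DPC-like cells held 1 UMI of it in the straight and 0 in the curly library. Of 14 endothelial genes listed, 12 had their highest level in endothelial-like cells in both libraries. The exceptions were FLI1, an ETS factor, which was highest in immune-like cells and reached 33.4 CPM in straight DPC-like cells, and NOTCH4. With DPC-like cells that held any endothelial marker and endothelial-like cells that held any DPC marker left out, the straight log2 ratio of DPC-like over endothelial-like SOX18 was -0.0129 (-0.24 to 0.22), while the curly one was -0.46 (-0.72 to -0.19).

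SOX18 is known to act on PROX1 in lymphatic cells, and some of the listed lymphatic genes differed between the libraries. CCL21, a chemokine of lymphatic vessels, had 49 UMIs, or 37.5 CPM, in straight endothelial-like cells and 954 UMIs, or 1104 CPM, in curly ones. LYVE1 had 1 and 26 UMIs and PROX1 1 and 7 UMIs there. The other listed genes differed less, with FLT4 at 4 and 5 UMIs and NR2F2 at 36 and 44 UMIs, or 27.6 and 50.9 CPM. PDPN went the other way, with 4 and 2 UMIs. The part of lymphatic cells in the endothelial SOX18 levels was not tested. A UMI of PROX1 or LYVE1 was found in 2 straight and 9 curly endothelial-like cells, and these held 3 and 25 SOX18 UMIs. The endothelial-like cells without them had SOX18 at 411 CPM (377 to 447) and 364 CPM (324 to 408).

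Most SOX2 UMIs were in DPC-like cells, by a wider margin in the straight library. DPC-like cells held 102 of the 114 straight and 19 of the 32 curly UMIs, at 12.9 CPM (10.6 to 15.7) and 6.13 CPM (3.69 to 9.57). In the straight library no other cluster reached an interval that overlapped this level among those with a SOX2 UMI, and the next was the sweat gland-like cluster with 1 UMI. In the curly library the intervals of the endothelial-like cluster (0.0293 to 6.45) and of cluster 18 (0.0196 to 4.32), with 1 UMI each, overlapped it. The remaining cells of the straight library had 12 UMIs in 11 cells, spread over 6 clusters, or 0.240 CPM (0.124 to 0.419). Those of the curly library had 13 UMIs in 11 cells over 8 clusters, or 0.174 CPM (0.0929 to 0.298). The gene was sparse even in DPC-like cells, where 6.79% of straight and 2.24% of curly cells had a UMI, against 0.211% and 0.159% of all other cells. In the straight library 77 of the 95 cells with SOX2 had a single UMI, and the highest count in any cell of either library was 3.

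Genes of other skin cells known for SOX2 were compared in the cells that held it. In the 95 straight cells with a SOX2 UMI, the 6 papilla genes listed summed to 2155 CPM, against 392 CPM over all straight cells. In the same cells the Schwann cell genes summed to 26.5 CPM, the melanocyte genes to 5.77 CPM and KRT8 with KRT18 to 12.7 CPM. The sums over all straight cells were 35.4, 11.3 and 50.3 CPM. In the 26 curly cells the papilla genes summed to 961 CPM, the Schwann cell genes to 69.6 CPM, the melanocyte genes to 8.70 CPM from 2 UMIs and KRT8 with KRT18 to 30.5 CPM. Over all curly cells these sums were 161, 40.0, 7.14 and 115 CPM, so the papilla genes stood above the library's sum in both libraries and the Schwann cell genes in the curly one, where DPC-like cells as a whole had them at 219 CPM. KRT8 and KRT18 were the only Merkel cell genes of 6 listed that were analysed here, and they are also keratins of sweat glands. KRT8 was highest in unnamed cluster 18, at 1689 and 1427 CPM, and HFSC-like cells had it at 117 and 296 CPM. Merkel cells were thus not covered by a defining gene.

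SOX2 and SOX18 had opposite orders in the main papilla clusters. At a finer clustering (resolution 0.8) the DPC-like cells separated into a cluster with high FGF7, a growth factor sent from papilla to epithelium, and a cluster with low FGF7. The FGF7-high cluster had 629 straight and 262 curly cells, and the FGF7-low cluster 496 and 353. FGF7 itself was at 1013 and 678 CPM in the FGF7-high and at 244 and 32.0 CPM in the FGF7-low cells, and the clusters are named by it. With the UMIs of both libraries pooled, the FGF7-high cells were led by CRYM, SOSTDC1, RSPO2 and DIO2, and the FGF7-low cells by CXCL14, BMP4, LUM and MUSTN1. LUM, an extracellular matrix gene, was on the FGF7-low side in the straight library, with 196 against 4.85 CPM, but had 30.0 CPM there against 39.1 CPM in FGF7-high cells of the curly library. The clusters come from the same cells as the SOX values below, which are therefore a description.

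SOX2 was at 17.7 CPM (14.2 to 21.7) in FGF7-high cells of the straight library, with 91 UMIs, and at 1.33 CPM with 3 UMIs in its FGF7-low cells. The curly library had 14 UMIs, or 9.45 CPM, in FGF7-high cells and 1 UMI, or 0.682 CPM, in FGF7-low cells. The log2 ratio of FGF7-high over FGF7-low was 3.73 (2.14 to 6.04) in straight and 3.79 (1.08 to 9.20) in curly cells. Of these clusters SOX2 was higher in the FGF7-high one in both libraries, and the few UMIs on the FGF7-low side leave the size of the ratio wide.

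SOX18 had the reverse order. FGF7-low cells had 841 CPM (804 to 880) in the straight and 414 CPM (382 to 448) in the curly library, and FGF7-high cells 141 CPM (131 to 152) and 90.4 CPM (75.8 to 107). The level in FGF7-high cells was 5.96-fold lower in straight, a log2 ratio of -2.58 (-2.70 to -2.45), and 4.58-fold lower in curly, a log2 ratio of -2.19 (-2.47 to -1.92). In the straight library the FGF7-low papilla was above the endothelial-like cells, while in the curly library their intervals overlapped. SOX18 was still present on the FGF7-high side, where 49.0% of straight and 26.0% of curly cells had a UMI. The summed CPM of 8 endothelial markers was 6.60 and 2.02 in FGF7-high and 6.65 and 4.77 in FGF7-low cells, in straight and curly respectively.

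A difference in SOX9 between the papilla clusters was not detectable at this depth. It was at 15.5 and 13.5 CPM in FGF7-high and at 16.4 and 17.7 CPM in FGF7-low cells, with log2 ratios of -0.08 (-0.66 to 0.52) and -0.39 (-1.31 to 0.50).

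**Figure D2:**
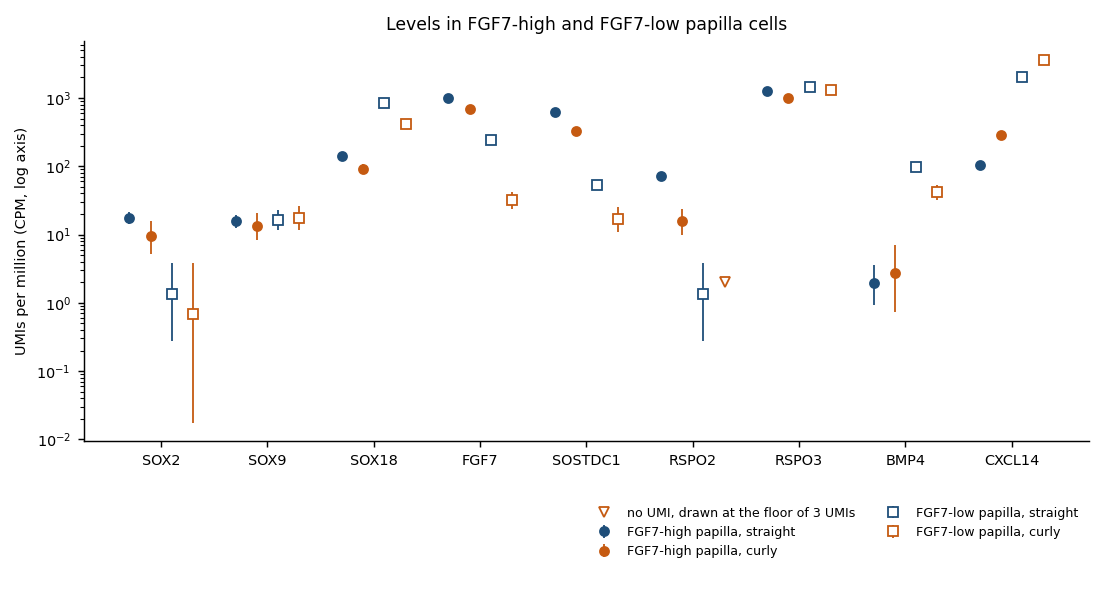
CPM on a log axis of 3 SOX genes and 6 papilla genes in FGF7-high (filled circles) and FGF7-low (open squares) papilla cells of the straight (blue) and curly (orange) library, with exact 95% Poisson intervals; a triangle marks a gene with no UMI, drawn at 3 UMIs. SOX2 is higher in FGF7-high and SOX18 in FGF7-low cells of both libraries, and the intervals of SOX9 overlap.

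The genes that mark mouse follicle papillae did not split along 1 line. SOSTDC1, an antagonist of BMP and WNT signals, was with SOX2, at 623 and 327 CPM in FGF7-high and 53.2 and 17.0 CPM in FGF7-low cells. BMP4, a BMP ligand of the papilla, was with SOX18, at 98.4 and 41.6 CPM in FGF7-low and 1.94 and 2.70 CPM in FGF7-high cells. RSPO3, which enhances WNT signalling, was high in both, at 1277 and 995 CPM in FGF7-high and 1451 and 1292 CPM in FGF7-low cells. RSPO2 had 368 and 23 UMIs in FGF7-high cells but 3 and 0 UMIs in FGF7-low cells. CORIN, a papilla protease, had 12 UMIs or fewer in 3 of the 4 groups of cells, and the direction of ALPL, the papilla's alkaline phosphatase, differed between libraries. PROM1 had at most 1 UMI in each group.

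How often SOX2 and SOX18 occurred in the same cells was compared within groups of DPC-like cells. Among FGF7-high cells of the straight library, 42 of the 74 cells with SOX2 also had SOX18, or 56.8%, against 47.9% of the cells without SOX2. Their median depths were 8745.5 and 7921 UMIs, and after thinning the shares were 25.7% and 20.8%. SOX18 was at 134 CPM (107 to 165) in the cells with SOX2 and at 142 CPM (131 to 154) in those without. Among straight DPC-like cells outside both clusters, 1 of 8 cells with SOX2 had SOX18, against 50.0% of those without, and SOX18 was at 21.4 CPM (0.543 to 119) against 401 CPM (343 to 466). Those 112 cells had RSPO3 at 182 CPM and LUM at 1018 CPM, and 111 of them joined a fibroblast-like cluster. Their values thus rest on 8 cells with SOX2 outside the main papilla clusters. Over all straight DPC-like cells SOX18 was at 128 CPM (103 to 157) in cells with SOX2 and at 378 CPM (363 to 392) in those without, a comparison that includes the different clusters. In curly FGF7-high cells 3 of 10 cells with SOX2 had SOX18, or 30.0% against 25.8%, and after thinning 0 of 10 against 14.7%.

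A few DPC-like cells grouped with fibroblasts. At resolution 0.8, 111 straight and 47 curly DPC-like cells joined a fibroblast-like cluster led by LUM and COL1A1. That cluster had SOX18 at 314 CPM (269 to 364) and 105 CPM (65.7 to 159), and SOX2 at 14.5 CPM (6.26 to 28.6) from 8 UMIs and 9.53 CPM (1.15 to 34.4) from 2 UMIs. These SOX2 levels overlapped those of the FGF7-high papilla. In the curly library 2 further SOX2 UMIs of DPC-like cells were in 9 cells that joined a pericyte-like cluster. All DPC-like cells outside the FGF7-high and FGF7-low clusters together had SOX2 at 16.9 CPM (7.31 to 33.3) in straight and 26.4 CPM (7.19 to 67.6) in curly, so SOX2 was not limited to the FGF7-high cells. All but 1 of its SOX18 UMIs in each library, 172 of 173 and 21 of 22, and all of its SOX2 UMIs came from the cells that had been DPC-like. The fibroblast-like cluster of the main clustering, 46 straight and 42 curly cells, held 1 SOX18 UMI in each library and no SOX2 UMI, at medians of 899 and 986 UMIs per cell. A count of 0 there allows up to 37.4 and 37.8 CPM, more than the papilla had, so SOX2 could not be assessed in these cells.

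SOX9 was an epithelial gene here. In the straight library the 6 highest of 22 levels ran from 489 to 323 CPM, each interval overlapping the next, and the first gap followed the sixth. They belonged to cluster 16 (KLK6 and CDSN, unnamed), cluster 3 (unnamed, with few UMIs per cell), cluster 9 (KRT6A, unnamed), the LGR5-led cluster of hair follicle stem cell (HFSC)-like cells, the KRT79 and CST6 cluster of suprabasal interfollicular epidermis (IFE)-like cells, and the HFSC-like cluster led by TFPI2 and PDPN. In the curly library cluster 9 was first at 423 CPM (407 to 439), and cluster 16, the TFPI2 cluster and the sweat gland-like cells followed with overlapping intervals. HFSC-like cells together were at 345 CPM (329 to 361) in straight and 336 CPM (321 to 352) in curly. A UMI was found in 75.2% and 77.3% of them, against 4.17% and 9.04% of endothelial-like cells, whose median depths are given above.

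The suprabasal cells showed the widest contrast within a class. The cluster with KRT79, a keratin of the upper follicle canal in mice, and CST6 had SOX9 at 344 CPM (330 to 358) and 330 CPM (317 to 343). The cluster with FLG and CNFN, genes of the cornifying epidermis, had 44.03 CPM (38.4 to 50.3) and 54.8 CPM (49.0 to 61.1). At resolution 0.8 the CST6-led cells had 624 CPM (585 to 664) and 437 CPM (414 to 461), the highest of all clusters in both libraries, with intervals that overlapped the next. Basal IFE-like cells lay between, at 178 and 156 CPM.

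Levels were lower in the clusters of the lower follicle. Matrix-like cells, the dividing progenitors of the hair, were at 27.2 CPM (23.9 to 30.9) and 28.1 CPM (25.7 to 30.7). Hair shaft-like cells were at 12.7 and 10.8 CPM, and inner root sheath (IRS)-like cells at 40.0 CPM (31.5 to 50.2) in straight and 20.7 CPM (17.5 to 24.3) in curly. DPC-like cells had 15.9 CPM (13.2 to 18.9) and 15.5 CPM (11.4 to 20.5), and endothelial-like cells 12.3 and 20.8 CPM. HFSC-like cells were above IRS-like cells by a log2 ratio of 3.11 (2.77 to 3.46) in straight and 4.02 (3.78 to 4.27) in curly.

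SOX9 was also set against KRT5, the keratin of basal keratinocytes. KRT5 was low in some epithelial clusters too, at 528 and 564 CPM in hair shaft-like and 588 and 491 CPM in IRS-like cells. Matrix-like cells had it at 861 and 858 CPM. In these clusters the ratio is therefore not SOX9 per epithelial RNA. DPC-like cells had KRT5 at 478 and 751 CPM and 33.2 (27.6 to 39.5) and 20.6 (15.2 to 27.3) SOX9 UMIs per 1000 KRT5 UMIs. HFSC-like cells had 25.9 and 29.2 and hair shaft-like cells 24.0 and 19.1, so that papilla ratios lay above those of stem cells in the straight and below them in the curly library. The part of free epithelial RNA in these low SOX9 levels was not tested. Matrix-like cells had 31.6 (27.7 to 35.9), which overlapped the papilla, and 32.8 (29.9 to 35.8), which did not. IRS-like cells had 68.1 (53.6 to 85.4) and 42.2 (35.7 to 49.5), above the papilla in both libraries. After thinning, SOX9 was found in 2.86% and 4.89% of IRS-like cells and in 2.62% and 3.31% of DPC-like cells.

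Sweat gland-like cells were compared in the same way, and in the straight library their ratio overlapped that of IRS-like cells. They had SOX9 at 220 CPM (184 to 260) and 383 CPM (331 to 441), and 69.6 and 268 SOX9 UMIs per 1000 KRT5 UMIs. Contractile-like cells, led by ACTG2 and ACTA2, had SOX9 at 173 and 211 CPM with KRT5 at 3781 and 4028 CPM.

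**Figure D3:**
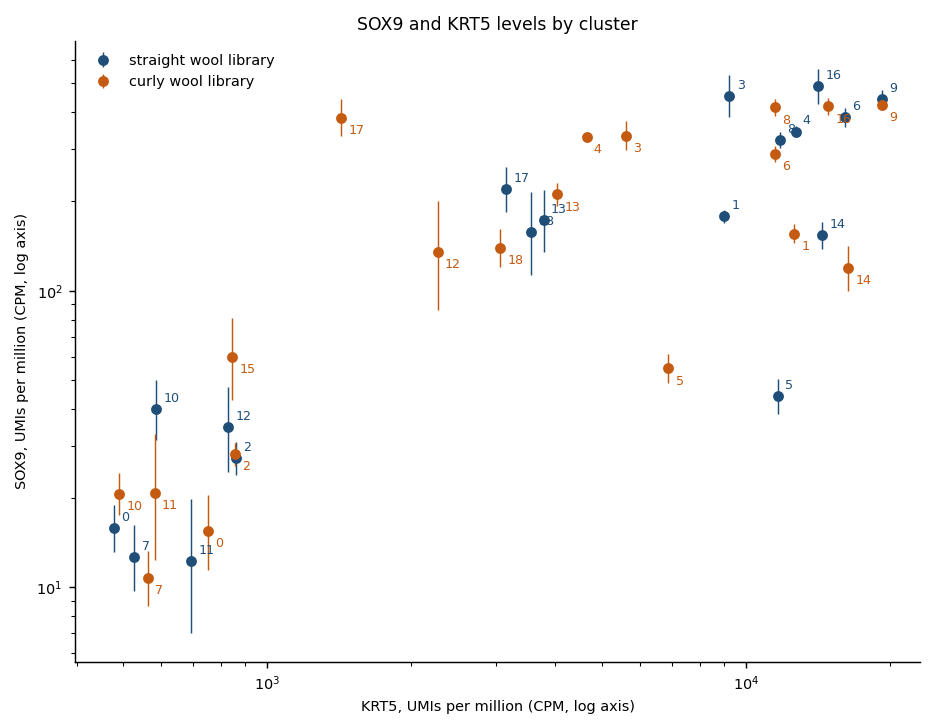
SOX9 CPM with exact 95% Poisson intervals against KRT5 CPM, both on log axes, for the clusters with at least 10 SOX9 UMIs in the straight (blue) or curly (orange) library; numbers are clusters (0 DPC-like, 2 matrix-like, 7 hair shaft-like, 10 IRS-like, 11 endothelial-like, 17 sweat gland-like, 4 and 5 suprabasal IFE-like). Papilla, vessel and hair shaft clusters lie together at the low end of both genes, cluster 5 has KRT5 with little SOX9, and cluster 17 lies above clusters of similar KRT5.

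Among 9887 genes with at least 500 UMIs, the patterns most like SOX9 over 44 points (22 clusters in 2 libraries) were those of KRT5, KRT17, GATM and ADGRL3, with Pearson's r of log2 levels from 0.82 to 0.80. Those most like SOX18 were LOC114110434, JAM2, COL13A1, IFITM5, IGF2 and RSPO3, with r from 0.79 to 0.75. JAM2 is known as a junction protein of vessels and RSPO3 as a papilla gene, but the level of JAM2 in each class was not examined here. These correlations are descriptions, since the points share their libraries and every cluster gives 1 point per library.

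SOX18 was lower in curly than in straight papilla cells. In DPC-like cells the log2 ratio of 246 over 355 CPM was -0.53 (-0.65 to -0.41), a level 1.44-fold lower. Within the FGF7-low papilla it was -1.02 (-1.16 to -0.89), or 2.03-fold lower, and within the FGF7-high papilla -0.64 (-0.92 to -0.37). FGF7-low cells, which are the SOX18-rich ones, made up 52.6% of curly and 40.1% of straight DPC-like cells, and within each of the populations the ratio was further from 0 than in DPC-like cells as a whole. In endothelial-like cells, where CCL21 differed as given above, it was -0.13 (-0.33 to 0.07), an interval that includes 0. SOX18 was also lower in curly cells of the background classes, as given above, and the part of free RNA in these ratios was not tested.

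SOX2 was lower in curly DPC-like cells too, at a log2 ratio of -1.08 (-1.87 to -0.36) from 19 against 102 UMIs. In FGF7-high cells it was -0.90 (-1.83 to -0.08). The interval reached past 0 when cells were thinned to 2000 UMIs, at -0.62 (-1.98 to 0.59), and among cells with more genes, at -0.74 (-1.74 to 0.13).

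For SOX9 the interval included 0 in papilla, HFSC-like and matrix-like cells, at log2 ratios of -0.03 (-0.55 to 0.46), -0.04 (-0.13 to 0.06) and 0.05 (-0.18 to 0.28). The HFSC-like clusters had opposite directions, since the LGR5-led one had 385 straight and 290 curly CPM, and the TFPI2 cluster 323 and 415 CPM. In IRS-like cells the ratio was -0.95 (-1.36 to -0.53), from 40.0 and 20.7 CPM. It was 0.12 (-1.35 to 1.89) after thinning to 2000 UMIs, which leaves too few UMIs to give a direction.

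These ratios can be set beside all genes with at least 100 UMIs in the same cells, of which the share at an absolute log2 ratio of at least 1 is the background. In DPC-like cells that share was 7.87% of 6910 genes, with a median of -0.06, and of the 3 SOX genes SOX2 passed. In FGF7-low cells it was 5.56% of genes, and SOX18, the only one of the 3 with enough UMIs there, passed. In FGF7-high cells it was 10.4%, and none of the 3 passed. In endothelial-like cells it was 6.62% with SOX18 the only one counted, and in HFSC-like, IRS-like and matrix-like cells 7.48%, 4.5% and 2.7% with SOX9 the only one counted, and none of these passed. Ratios of this size were thus found for 544 genes in DPC-like cells and 207 genes in FGF7-low cells.

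**Figure D4:**
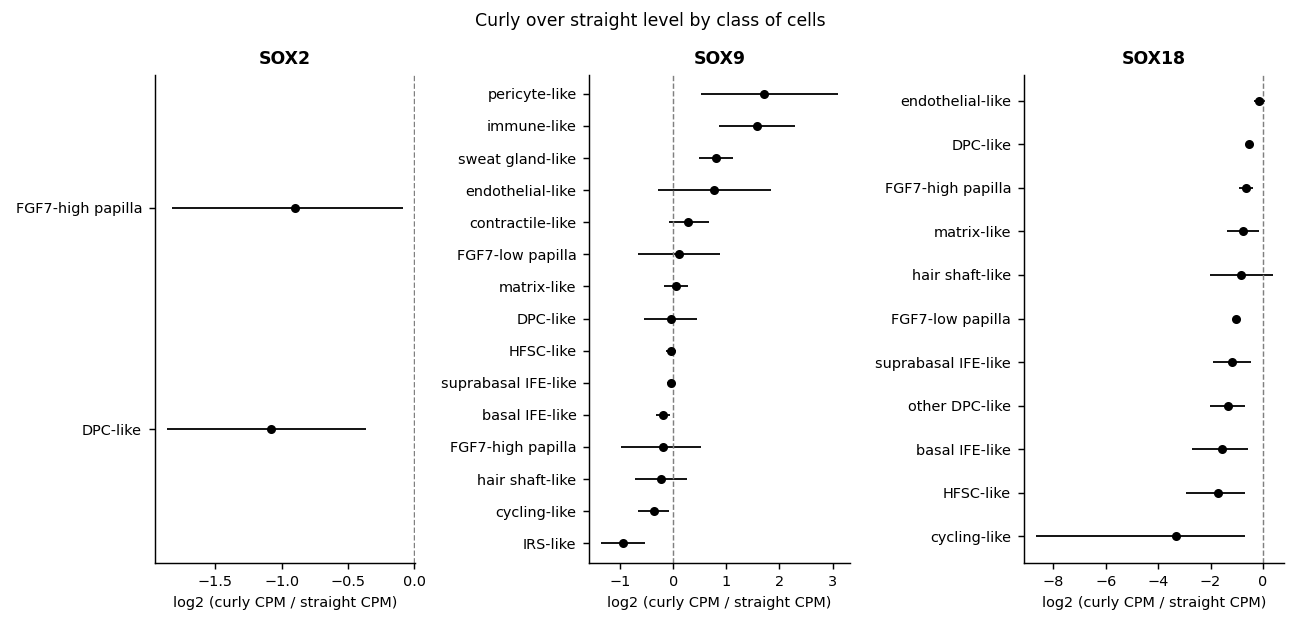
Log2 ratio of the curly over the straight CPM (horizontal axes, exact 95% intervals of the split of UMIs, dashed line at 0) of SOX2, SOX9 and SOX18 in classes of cells and in the papilla clusters with at least 20 UMIs. SOX18 lies left of 0 in every class shown, with endothelial-like and hair shaft-like intervals that include 0, while SOX9 lies on both sides.

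Of 14 SOX genes in the table, SOX4 had 22368 UMIs, SOX9 19516 and SOX18 4815, and 9 had under 300. SOX4 is a SOXC gene of progenitor cells, and matrix-like cells, where SOX9 was low, held it at 330 and 294 CPM. SOX17, the SOXF relative of SOX18 in arteries, had 13 UMIs in all, 12 of them in endothelial-like cells and none in DPC-like cells. SOX7 had 7 UMIs and none in DPC-like cells. Endothelial-like cells held 0 straight and 1 curly UMI of SOX7, so SOX7 did not set the papilla apart from vessels. The papilla thus had SOX18 without detectable SOX17 or SOX7 at this depth, where a count of 0 allows up to 0.381 CPM among straight and 0.968 CPM among curly DPC-like cells. SOX8 and SOX10, the SOXE relatives of SOX9, had 152 and 105 UMIs.

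**Figure D5:**
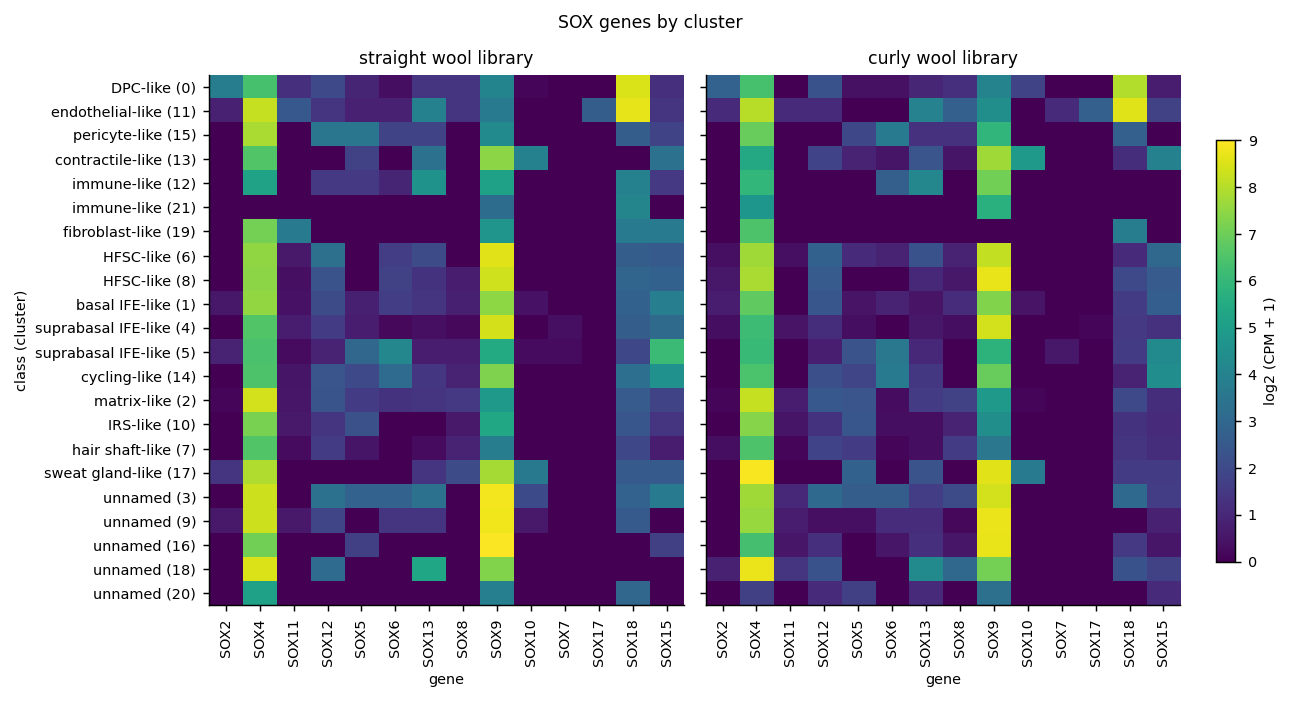
Levels of 14 SOX genes (columns, ordered by subfamily) in 22 clusters (rows) of the straight and curly libraries, as log2 of CPM plus 1 (colour scale). SOX4 is broad, and brightest in unnamed cluster 18 of the straight and in the sweat gland-like cluster of the curly library. SOX9 is bright in epithelial rows, and SOX18 in the DPC-like and endothelial-like rows.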

How the data were processed

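Single-cell RNA-seq of pooled lamb skin was read from 1 table. The authors aligned reads to Oar_rambouillet_v1.0 and counted UMIs (Cell Ranger 3.0.2 per the submitters' processing notes), and deposited the natural log of 1 plus UMIs scaled per cell, as read from the values. Counts had been assumed at planning. UMIs were calculated back, and 100% of 28552149 values were whole within 0.01. The table has 14037 cells, against 15830 in the series' design text.

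The libraries were integrated in Seurat 5.3.0 (R 4.3.3) on 2000 variable genes and 30 dimensions without SOX genes. Resolution 0.3 was the lowest with at least 19 clusters. Clusters were named by marker score (at least 1, with 3 markers in 10% of cells and 5 CPM added), with limits set after the data were seen. Clusters with very few UMIs per cell stayed unnamed where no marker led. The SOX genes, marker lists and gene lists were chosen with earlier results of these data known, and the papilla split after the finer clusters were seen. Named genes were the SOX genes, the genes most like SOX9 and SOX18 in pattern, the listed genes, and leading genes of clusters, the last chosen after their values were seen.

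Sums used Python 3.11.15, scipy 1.17.1, pandas 2.3.3 and scanpy 1.11.5. Intervals are exact Poisson, Clopper-Pearson and binomial-split at 95%, tested on simulated data, and cover counting error only. A count of 0 allows up to 3 UMIs. Scrublet called 0.899% of straight and 0.0264% of curly cells, so doublets were treated only in an alternative without the highest 6% of scores. KRT14 and KRT15 were looked up in a RefSeq name table of another assembly (ARS-UI_Ramb_v3.0), and no position was used. 10× reads lie near the 3' end of genes, and the gene models, that of SOX2 included, were not checked here.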

Additional observations from a re-analysis of the deposited data

Results flagged for a closer look

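The curly over straight log2 ratio of SOX9 pointed in opposite directions in different clusters, with intervals that excluded 0. The differences between clusters were not tested. SOX9 was lower in curly cells of the basal IFE-like cluster (-0.19), the low-UMI cluster 3 (-0.45), the LGR5-led HFSC-like cluster (-0.41), the IRS-like cluster (-0.95), the cycling-like cluster (-0.37) and the KLK6 and CDSN cluster (-0.23). It was higher in curly cells of the FLG and CNFN suprabasal cluster (0.31), the TFPI2-led HFSC-like cluster (0.36), the larger immune-like cluster (1.96), the pericyte-like cluster (1.70) and the sweat gland-like cluster (0.80). The immune-like and pericyte-like values rest on 24 and 41 curly UMIs, and KRT5 in these clusters was also higher in curly cells, at 2270 against 830 CPM and 845 against 467 CPM. The part of free epithelial RNA in them was not tested. In the sweat gland-like cells KRT5 was lower in curly, at 1428 against 3156 CPM.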

How the results depend on the processing

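Of 116 alternative values of 16 results, 91 stayed within the interval of the reported value, and 7 had the opposite sign. In 2 of these 7 the reported interval excluded 0, and in the other 5, SOX18 of curly over straight endothelial-like cells and SOX9 of matrix-like cells, it included 0. Thinning to 2000 UMIs turned SOX18 in DPC-like over endothelial-like cells to 0.0062 in straight and moved it to -0.89 in curly, turned SOX9 of curly over straight IRS-like cells to 0.12, and moved it to -0.40 in matrix-like cells. It also moved SOX18 of curly over straight to -0.81 in DPC-like and 0.083 in endothelial-like cells, SOX9 of HFSC-like over IRS-like cells to 3.99 in straight, and SOX2 to 29 and 10 UMIs, since fewer UMIs were left. Without integration SOX18 of DPC-like over endothelial-like cells was -1.79 in curly and that of curly over straight DPC-like cells -1.72, with only 28 curly DPC-like cells. A cluster left unnamed, led by COL1A1, COL3A1, CRABP1 and APOD, then held 684 curly and 45 straight cells. The matching of curly to straight papilla cells thus depended on the integration. Also without it, FGF7-high over FGF7-low was 1.84 for SOX2 and -2.08 for SOX18 in straight. At resolution 0.4 the latter was -2.37. Resolution 0.8 moved SOX9 of curly over straight to -0.24 in HFSC-like and -0.39 in matrix-like cells. With SOX genes kept for clustering, SOX9 of HFSC-like over IRS-like cells was 2.36 and 2.58 and of curly over straight HFSC-like cells -0.78. With the mean of per-cell CPM these were 3.52, 4.35 and -0.26, and SOX18 of curly over straight DPC-like cells was -0.72. That ratio was -0.41 with a higher minimum of genes per cell. Leaving out mixed cells gave -0.0129 for SOX18 of DPC-like over endothelial-like cells in straight. The causes were not tested. SOX2 and SOX18 kept their opposite order in the papilla wherever a value was found.

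Without integration no cluster was HFSC-like, and SOX2 in curly DPC-like cells and the curly papilla ratios had no value. SOX2 on the FGF7-low side had no UMI left in straight after thinning and in curly with the higher minimum of genes, which gave no ratio. The papilla and SOX2 ratios and the removal of shared barcodes were alternatives chosen after seeing the data. No paired analysis was possible because each wool type has 1 library. Depth limits SOX2 most, with 146 UMIs in all.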

Other observations

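Other SOX genes marked other parts of the skin. SOX15 had its most UMIs in the FLG and CNFN suprabasal cluster, where SOX9 was low, with 68.9 CPM in the straight and 18.5 CPM in the curly library, where cycling-like cells had 20.3 CPM from 23 UMIs, and over all cells it was at 11.1 CPM (10.3 to 12.0) and 3.83 CPM (3.40 to 4.29). SOX6 had its most UMIs in the same cluster, at 16.8 and 11.3 CPM, and cycling-like cells had it at 7.93 and 12.4 CPM. SOX10, known from neural crest cells and from gland myoepithelium, was at 14.4 and 27.9 CPM in the contractile-like cluster, from 6 and 67 UMIs, and at 11.5 and 11.9 CPM in sweat gland-like cells, both of which also held SOX9.

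Of 12 listed genes of the hedgehog pathway and of follicle stem cells, 11 were analysed here. SHH itself had 3 UMIs over both libraries. HHIP, which binds hedgehog ligands at the cell surface, was highest in DPC-like cells in both libraries, at 254 and 144 CPM. NFIB, a stem cell factor of the bulge, was highest in the LGR5-led HFSC-like cluster in both libraries, at 16.0 and 17.6 CPM. NFATC1 was highest there in straight cells, at 56.9 CPM, and in the KRT79 and CST6 cluster in curly cells, at 28.6 CPM.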
